A study of Mus musculus with 24 samples.

Results

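Small leucine-rich proteoglycans are secreted proteins of the extracellular matrix, and procollagen C-proteinase enhancers are secreted helpers of collagen maturation. Expression of 10 such genes was described in mouse thoracic aorta, of 25941 genes in the deposited table. They are 8 small leucine-rich proteoglycan genes (Dcn, Bgn, Aspn, Fmod, Lum, Prelp, Ogn and Podn) and the 2 enhancer genes, Pcolce and Pcolce2. The genes were taken from the table by their symbols, and all 10 passed the filter on low counts. Podn and Pcolce were selected because their counts were lower with rofecoxib in these same libraries. Their values in the rofecoxib comparisons are therefore given as a description, with no test. The other 8 genes were not selected on a comparison.

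RNA was sequenced in 24 libraries made from aortas of adult male wildtype C57BL/6 mice aged 10 to 12 weeks, with 8 libraries in each of 3 groups. For 3 weeks the mice ate regular chow with celecoxib at 100 mg/kg/day, with rofecoxib at 50 mg/kg/day, or with no drug (control), and tissue was taken at zeitgeber time 11 (hours after lights on). Both drugs inhibit cyclooxygenase-2, selectively over cyclooxygenase-1, and their doses differed. The labels do not tie a library to an animal, so the p-values measure the spread between these libraries. The titles carry further numbers, each group in a run of its own. If they mark a batch, batch and group cannot be told apart.

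As background, the core proteins of small leucine-rich proteoglycans fold into a curved stack of leucine-rich repeats that binds collagen fibrils. Most carry chains of chondroitin, dermatan or keratan sulfate, and they limit or guide how fibrils grow in width. Several also bind growth factors of the TGF-beta family and cell surface receptors. Fibrillar collagen is secreted as procollagen, and its C-terminal propeptide is cut off by Bmp1 and related proteinases before fibrils form. The enhancers have no proteinase activity of their own: they bind the propeptide region and speed this cut. In the artery wall these genes are expressed by adventitial fibroblasts and by smooth muscle cells.

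The sequences upstream of Podn, Pcolce and Fmod are shown because these 3 genes had the lowest levels with rofecoxib relative to control. Each is the 250 bases before the transcription start in RefSeq (GRCm38.p6), read 5′ to 3′ on the gene's strand, with matches to 4 short motifs in capitals. The motifs, searched on both strands, were the TATA box (TATAAA), the GC box (GGGCGG), the core of the SMAD-binding element (CAGAC) and the CCAAT box. For Podn, RefSeq lists a second start, and the window of the first is shown (chr4:108031955-108032204, minus strand). The Pcolce window is chr5:137611405-137611654 (minus strand) and the Fmod window chr1:134037004-134037253 (plus strand).
Podn: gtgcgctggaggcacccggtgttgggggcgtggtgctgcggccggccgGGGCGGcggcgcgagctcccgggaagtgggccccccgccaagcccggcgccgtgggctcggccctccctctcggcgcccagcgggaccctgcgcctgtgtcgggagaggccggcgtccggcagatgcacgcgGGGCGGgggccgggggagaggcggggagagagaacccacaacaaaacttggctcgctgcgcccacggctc
Pcolce: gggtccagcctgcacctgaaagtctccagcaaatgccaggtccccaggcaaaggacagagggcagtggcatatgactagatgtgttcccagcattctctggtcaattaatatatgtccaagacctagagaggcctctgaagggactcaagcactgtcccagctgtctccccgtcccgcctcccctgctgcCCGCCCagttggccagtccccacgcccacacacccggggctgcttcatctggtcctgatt
Fmod: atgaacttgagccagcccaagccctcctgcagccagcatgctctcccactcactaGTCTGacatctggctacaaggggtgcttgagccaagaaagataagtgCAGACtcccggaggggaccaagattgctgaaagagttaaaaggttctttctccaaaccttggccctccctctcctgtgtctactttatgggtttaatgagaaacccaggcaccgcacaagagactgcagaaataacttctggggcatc
The capitals mark 2 copies of GGGCGG upstream of Podn and 1 upstream of Pcolce, there on the other strand as CCGCCC. Upstream of Fmod they mark CAGAC once on each strand. Of 32851 RefSeq windows of this length, 32.7% held the GC box, 42.2% the SMAD core, 33.8% the CCAAT box and 12.4% the TATA box. The Podn window had a GC content of 78.0%, above the 90th percentile of all windows (69.2%). That of Pcolce had 58.8% and that of Fmod 51.2%, near the median of 52.4%. None of the 4 motifs was in all 3 windows. A match describes the sequence and says nothing of whether a factor binds there.

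Among the other members with a window, Pcolce2 held GGGCGG once and Bgn 3 times, with 2 of these overlapping. Ogn and Aspn, which are neighbours, each held 2 matches to TATAAA, counted over both strands, in AT-rich windows (GC content 42.0% and 30.0%). Those of Ogn overlap in a single stretch, TTTATAAA, and those of Aspn lie apart. Prelp held CAGAC and CCAAT once each.

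Library totals ran from 21652432 to 21687906 counts, a range of 0.164%. Members had between 1206 counts (Podn) and 188966 counts (Bgn) in a library, so counting error alone was at most 2.9%. The smooth muscle gene Myh11 was at 7933 to 13060 CPM (counts relative to library size, scaled by TMM factors) and the fibroblast gene Pdgfra at 49.8 to 111 CPM. The endothelial gene Pecam1 was at 192 to 430 CPM; the fat cell gene Adipoq ran from 49.1 to 376 CPM. The cartilage collagen Col2a1 was at 0.138 to 3.40 CPM. Fewer cells of a type and less RNA per cell cannot be told apart in such bulk samples.

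Per length, biglycan was the most abundant member. Levels per kilobase of exon, the scale on which genes can be compared, placed Bgn first in control aortas at 1259 ± 126 CPM per kb (SD, n = 8). On this scale Bgn alone made up 51.0% of the summed level of the 8 proteoglycans. Its exons cover 6099 bases and its longest transcript 2666, so the share depends on the length used. Ogn followed at 437.5 ± 65.0, Dcn at 281.8 ± 49.0 and Prelp at 239.4 ± 31.7 CPM per kb. Lum was at 103.5 ± 14.1, Fmod at 87.6 ± 13.8 and Pcolce at 65.0 ± 8.16 CPM per kb. Aspn (37.1 ± 7.05), Pcolce2 (36.2 ± 7.23) and Podn (27.4 ± 3.05 CPM per kb) were the lowest. Library ranges of neighbours in this order did not overlap after Bgn, after Prelp and after Pcolce. The other neighbours overlapped, so their order was not separated by the spread. With the longest transcript in place of all exons, Bgn was at 2881, Dcn at 350.6, Pcolce at 96.6 and Podn at 32.2 CPM per kb, which placed Pcolce above Fmod.

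Pcolce (ENSMUSG00000029718, mm9 chr5:138046129-138055214) encodes the first procollagen C-proteinase enhancer and was one of the 2 genes selected for its level with rofecoxib. Control libraries ran from 202.4 to 288.8 CPM (median 252.4) and celecoxib libraries from 176.4 to 269.3 CPM (median 232.6). Rofecoxib libraries ran from 129.5 to 185.6 CPM (median 164.7). All 8 rofecoxib libraries lay below the lowest control, and 7 of 8 celecoxib libraries lay above the highest rofecoxib library. The log2 fold change, rofecoxib against control, was -0.60 ± 0.09 (SE), or 34.2% lower.

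Pcolce2 (ENSMUSG00000015354, mm9 chr9:95537818-95598717), its paralogue, differed less. It ran from 126.0 to 223.5 CPM in control (median 162.1), 135.5 to 226.2 with celecoxib (median 158.4) and 114.9 to 163.2 with rofecoxib (median 154.3). These ranges overlapped, and the log2 fold change for rofecoxib against control was -0.17 (95% interval -0.40 to 0.06, edgeR adjusted p = 0.314). The ratio of Pcolce to Pcolce2, in CPM per kb, was 1.82 ± 0.21 in control, 1.67 ± 0.21 with celecoxib and 1.34 ± 0.14 with rofecoxib (SD, n = 8 each). Since Pcolce was selected, this ratio is a description as well.

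Podn (ENSMUSG00000028600, mm9 chr4:107687194-107705144) encodes podocan, a proteoglycan found in the artery wall and known to restrain smooth muscle cell growth. It was the other gene selected. Control libraries ran from 96.5 to 135.0 CPM (median 119.7), celecoxib libraries from 99.3 to 151.5 CPM (median 116.9) and rofecoxib libraries from 57.8 to 86.0 CPM (median 72.9). The rofecoxib libraries overlapped with neither other group. The log2 fold change was -0.68 ± 0.09 against control (37.5% lower), and celecoxib against rofecoxib was 0.72 ± 0.09 at the different doses.

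Fmod (ENSMUSG00000041559, mm9 chr1:135933629-135945056) encodes fibromodulin, which binds type I collagen and takes part in its crosslinking. It was not selected, and it fell with rofecoxib. Within groups Fmod varied with Podn and Pcolce (Pearson's r = 0.78 and 0.80, below), so its test is not independent of their selection in these libraries. The gene list itself was drawn up with earlier results of these data known. Control libraries ran from 212.0 to 335.8 CPM (median 305.4) and rofecoxib libraries from 114.3 to 243.2 CPM (median 179.5). The groups overlapped, with 6 of 8 rofecoxib libraries below the lowest control and 8 of 8 below the control mean. The log2 fold change was -0.75 ± 0.16 (SE), or 40.5% lower (edgeR's quasi-likelihood test with Benjamini-Hochberg adjustment over 14451 genes, adjusted p = 0.0153). Of the 8 members that were not selected, Fmod was the 1 called at an adjusted p under 0.05. Of all genes tested, 5.3% were called in this comparison and 2.87% were called lower. With each of the 24 libraries left out in turn Fmod was called in every fit, with an adjusted p of at most 0.0399 (without rofecoxib 8).

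**Figure D1:**
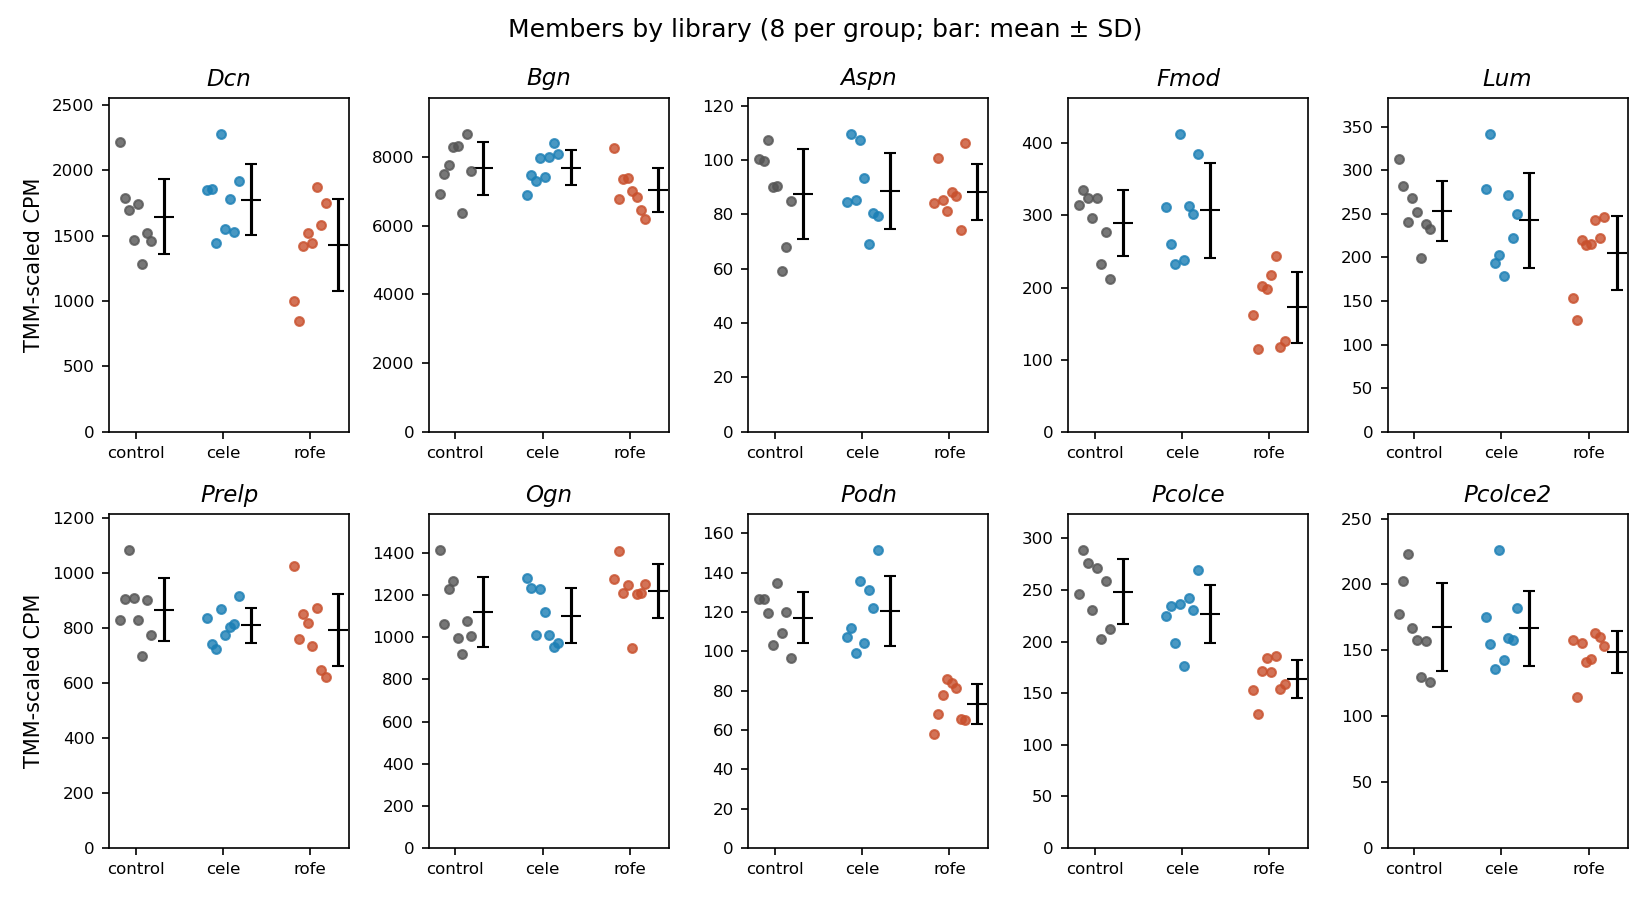
TMM-scaled CPM (y axis, from 0, own scale in each panel) of each of the 10 genes in each library (points, 8 per group) for control, celecoxib (cele) and rofecoxib (rofe), with the group mean and SD as a bar. Podn and Pcolce, which were selected for it, lie lower in all 8 rofecoxib libraries than in any control, Fmod in 6 of 8, and the other genes overlap more.

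Lum and Prelp, of the same class as Fmod, did not pass the test. Lumican (Lum, ENSMUSG00000036446, mm9 chr10:97027933-97035539) carries keratan sulfate and keeps collagen fibrils thin and evenly spaced. It ran from 199.5 to 313.5 CPM in control (median 246.7) and from 128.2 to 246.6 CPM with rofecoxib (median 217.3). All 8 rofecoxib libraries lay below the control mean, but only rofecoxib 1 and 2 lay below the lowest control (log2 fold change -0.30, 95% interval -0.58 to -0.02, edgeR adjusted p = 0.149). Prelp (ENSMUSG00000041577, mm9 chr1:135806679-135818193), which links basement membranes to connective tissue, lies 115.4 kb from Fmod. Its values were 696.6 to 1083 CPM in control and 622.7 to 1026 CPM with rofecoxib, and its log2 fold change was -0.13 (-0.32 to 0.06, adjusted p = 0.349).

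Decorin, biglycan and asporin form a class of their own. Decorin (Dcn, ENSMUSG00000019929, mm9 chr10:96942043-96980979) carries 1 glycosaminoglycan chain and binds collagen and TGF-beta. It ran from 1284 to 2216 CPM in control (median 1606), 1439 to 2278 with celecoxib (median 1814) and 845.6 to 1869 with rofecoxib (median 1480). Rofecoxib 1 and 2 were again the 2 libraries below all controls. Dcn had a log2 fold change of -0.20 for rofecoxib against control (-0.49 to 0.08, edgeR adjusted p = 0.338).

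Biglycan (Bgn, ENSMUSG00000031375, mm9 chrX:70728739-70741474), which also signals through toll-like receptors, ran from 6358 to 8681 CPM in control and from 6201 to 8276 CPM with rofecoxib. Its log2 fold change was -0.13 with the narrowest interval of the members (-0.26 to 0.01, edgeR adjusted p = 0.204). Asporin (Aspn, ENSMUSG00000021388, mm9 chr13:49639610-49663128) has a stretch of aspartates in place of glycosaminoglycan sites and binds TGF-beta. It had nearly equal means of 87.4 ± 16.6 CPM in control, 88.7 ± 14.0 with celecoxib and 88.4 ± 10.3 with rofecoxib (SD, n = 8 each).

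Osteoglycin (Ogn, ENSMUSG00000021390, mm9 chr13:49703238-49720071), also called mimecan, was the member with the highest value for rofecoxib relative to control. It ran from 919.5 to 1415 CPM in control (median 1070) and from 947.3 to 1410 CPM with rofecoxib (median 1231). Of 8 rofecoxib libraries 7 exceeded the control mean, and the groups overlapped (log2 fold change 0.12, 95% interval -0.06 to 0.30, edgeR adjusted p = 0.375). As a share of the summed level per kb of exon of the 8 proteoglycans, Ogn was 17.7 ± 1.9% in control and 20.9 ± 2.5% with rofecoxib (SD, n = 8 each). Fmod was 3.54 ± 0.41% and 2.27 ± 0.61% of the same sum. The sum itself was 2473 ± 209 CPM per kb in control, 2477 ± 139 with celecoxib and 2284 ± 128 with rofecoxib, so most of the proteoglycan RNA was of genes that were not called.

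Of the 8 genes that were not selected, 6 had a log2 fold change below 0 with rofecoxib against control. The median of the 8 was -0.15, against -0.00 over all genes tested. Some of these genes varied together within groups (below), so they are not 8 separate observations. With a fibroblast marker score as a covariate (below), Dcn and Pcolce2 lay above 0.

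With celecoxib none of the 10 genes was called against control, while 1.41% of all genes tested were. By edgeR 0 members also had an unadjusted p under 0.05, and DESeq2's Wald test called 0. The controls are those used to select Podn and Pcolce. Podn had a log2 fold change of 0.04 (95% interval -0.15 to 0.23, edgeR adjusted p = 0.861) and Pcolce of -0.13 (-0.31 to 0.05, adjusted p = 0.432, 7 of 8 libraries below the control mean). Fmod had 0.08 (-0.24 to 0.41, adjusted p = 0.828) and Dcn 0.11 (-0.17 to 0.39, adjusted p = 0.722). Bgn had 0.00 (-0.13 to 0.14), so that a difference of the size seen for Fmod with rofecoxib lay outside the interval of each of these 5 genes. The other 5 genes lay between -0.10 and 0.02.

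Set against each other at their different doses, the drugs gave Fmod levels of 307.0 ± 65.6 CPM with celecoxib and 172.5 ± 49.6 CPM with rofecoxib (SD, n = 8 each). The log2 fold change was 0.83 ± 0.16, and 6 of 8 celecoxib libraries lay above the highest rofecoxib library (edgeR adjusted p = 0.0017). Of all genes tested, 22.7% were called between the drugs and 11.5% were higher with celecoxib. Fmod was again the 1 of the 8 members not selected that was called. Dcn, with 8 of 8 celecoxib libraries above the rofecoxib mean, missed the threshold (0.31, 95% interval 0.03 to 0.60, adjusted p = 0.0990). With 1 library left out, Dcn passed in 1 of 24 fits (without rofecoxib 6, 0.38, edgeR adjusted p = 0.0472). Its adjusted p was up to 0.188 (without rofecoxib 2). It also passed after GC correction (0.49, adjusted p = 0.0248). With a fibroblast marker score as a covariate (below), its sign turned and it was not called.

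The other genes did not pass between the drugs. Lum had 0.24 (95% interval -0.04 to 0.52), Pcolce2 0.16 (-0.07 to 0.40), Bgn 0.13 (0.00 to 0.26) and Ogn -0.15 (-0.33 to 0.03). Prelp had 0.03 (-0.15 to 0.22) and Aspn 0.00 (-0.22 to 0.23). Pcolce, given without a test, had 0.47 ± 0.09.

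**Figure D2:**
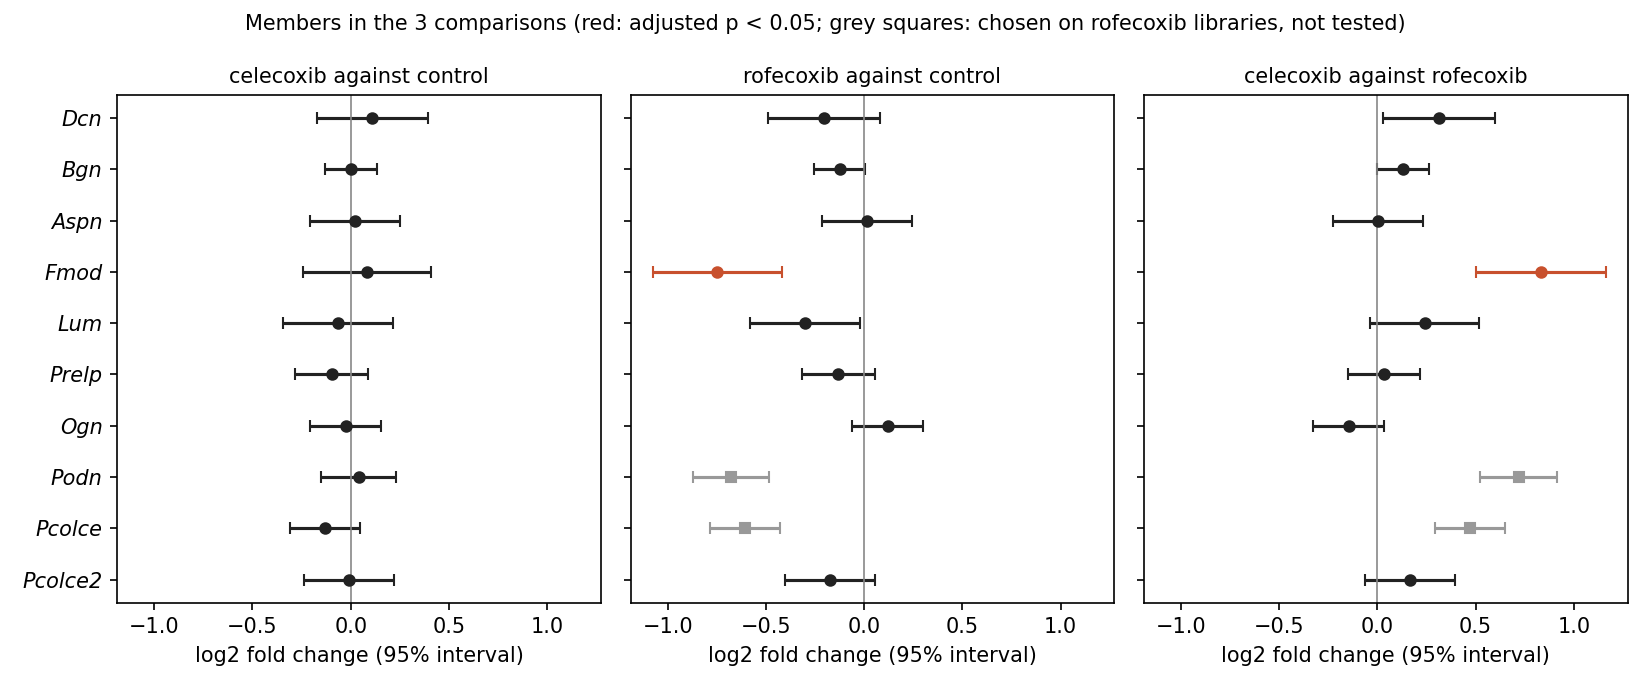
Log2 fold changes (x axis, with 95% intervals) of the 10 genes (rows) in the 3 comparisons. Fmod is the gene in red, at -0.75 for rofecoxib against control and 0.83 for celecoxib against rofecoxib, grey squares are the selected genes Podn and Pcolce, and the points of celecoxib against control lie between -0.13 (Pcolce) and 0.11 (Dcn).

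Some markers of fibroblasts and of other cells moved with the rofecoxib group, and some of smooth muscle with both drugs. White and brown fat markers had median log2 fold changes of -0.419 and -0.579 with rofecoxib and -0.341 and -0.764 with celecoxib, with none called. Summed levels of 15 fibroblast and adventitia markers ran from 4611 to 6283 CPM in control, 4992 to 6831 with celecoxib and 3388 to 5402 with rofecoxib. The largest part of these sums was Gsn (average log2 CPM 11.6). With rofecoxib 3 of the 15 fell (Serpinf1, Clec3b and Thy1) and none rose. Log2 fold changes were below 0 for 12 of the 15 and above for 3 (Mfap5 0.16, Ly6a 0.05 and Dpt 0.01). Pdgfra had -0.20 and was not called (edgeR adjusted p = 0.279). Over all 14451 genes tested against control, 2.87% were called lower and 351 genes higher with rofecoxib. With celecoxib 132 genes were called higher. Of 12 smooth muscle markers 3 rose with each drug, and their sums ran from 36900 to 50110 CPM in control, 44960 to 54800 with celecoxib and 46430 to 55670 with rofecoxib. Macrophage markers summed to 268 to 435 CPM in control and 146 to 314 CPM with rofecoxib (3 of 12 fell). Markers listed for cartilage summed to 104 to 182 CPM in control and 88.7 to 117 CPM with rofecoxib (1 of 5 fell, Comp). That sum was mostly Comp and Acan, and the cartilage collagen Col2a1 was at most 3.40 CPM in any library.

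Libraries rofecoxib 1 and 2 had the lowest fibroblast scores, the mean log2 CPM of the 15 markers (6.46 and 6.31, against a control mean of 7.01). They also had the lowest Dcn and Lum. Cardiac muscle markers summed to 508 CPM in 1 rofecoxib library and to at most 58.4 CPM in control. Of 6 tested 1 rose, Actc1, as did 351 of all 14451 genes.

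When the fibroblast score was added to the fit as a covariate, Podn had a log2 fold change of -0.50 and Pcolce of -0.41 for rofecoxib against control. Fmod had -0.48 and was no longer called (edgeR adjusted p = 0.0749). Dcn moved from -0.20 to 0.10, Lum to -0.05 and Pcolce2 to 0.02. With the smooth muscle score as a covariate Fmod had -0.63 (adjusted p = 0.175), Podn -0.52 and Pcolce -0.48. No member and only 7 genes in all were called in that fit.

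The GC content of transcripts, with which library bias can vary, moved with the groups too. The slope of log2 CPM on GC fraction was 0.31 ± 0.83 in control, 0.77 ± 0.90 with celecoxib and -1.09 ± 0.96 with rofecoxib (SD, n = 8 each), over 11999 genes. Podn (56.3% GC), Pcolce (54.8%) and Fmod (53.7%) lay above the median of the tested genes (49.9%), as did Prelp (53.8%) and Bgn (51.2%). Dcn (37.4%), Ogn (36.3%) and Aspn (34.4%) lay far below it. After GC correction Fmod was at -0.69 (edgeR adjusted p = 0.0310), Podn at -0.57 and Pcolce at -0.52, while Ogn moved from 0.12 to -0.01 and Aspn from 0.02 to -0.13.

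**Figure D3:**
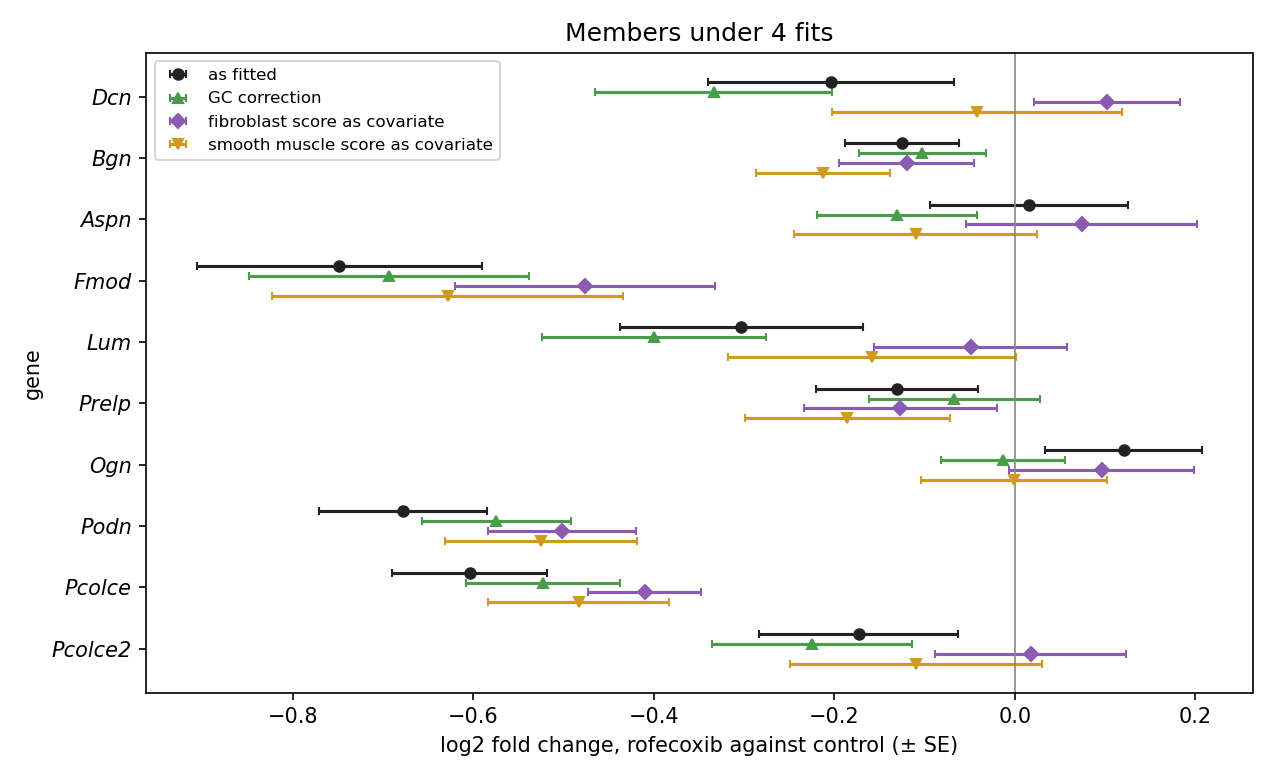
Log2 fold change for rofecoxib against control (x axis, ± SE) of each gene (rows) as fitted (circles), after GC correction (triangles up) and with the fibroblast (diamonds) or smooth muscle score (triangles down) as a covariate. Podn, Pcolce and Fmod stay at or below -0.41 in all 4 fits, while Dcn, Ogn, Aspn and Pcolce2 change sign in at least 1.

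Within groups some of the genes varied together. After each group's mean was removed, levels (log2 CPM) were correlated over the 24 libraries with each other and with the marker scores. Permutation p-values (labels permuted within groups, two-sided, 100000 resamples) were adjusted over 65 relations. The group difference used to select Podn and Pcolce does not enter these values. Of 45 pairs of members 15 passed, all positive, and the median r was 0.34 (-0.21 to 0.80). No share over pairs of other genes was computed, so this count is not read as particular to the members.

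Podn, Pcolce and Fmod varied together. Fmod and Pcolce correlated at r = 0.80 (Spearman's rho 0.81, adjusted permutation p = 0.00022), and r was 0.76 without the 2 libraries farthest from the median. Within each group of 8 the r was 0.88 in control, 0.77 with celecoxib and 0.84 with rofecoxib, and it was 0.75 after GC correction. Podn and Fmod had r = 0.78 (rho 0.79, adjusted permutation p = 0.00065, 0.81 without 2 libraries, 0.76 after GC correction). Podn and Pcolce had r = 0.76 (rho 0.81, adjusted permutation p = 0.00078, 0.80 without 2 libraries, 0.76 after GC correction). For both pairs r was at least 0.70 in each of the 3 groups.

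Pcolce2 went with Pcolce (r = 0.69, rho 0.59, adjusted permutation p = 0.0037) and with Fmod (r = 0.65, rho 0.61, adjusted permutation p = 0.00087). The Fmod value was 0.36 in the rofecoxib group and 0.87 in control. After GC correction Pcolce2 had 0.79 with each of them, and Podn and Dcn, at 0.54 before (adjusted permutation p = 0.0308, rho 0.55), had 0.78, so these values were no lower than those among Podn, Pcolce and Fmod.

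Some neighbours on a chromosome also varied together. Dcn and Lum, 47.0 kb apart, had r = 0.77 (rho 0.72, adjusted permutation p = 0.0013). Within groups this was 0.86 in control, 0.35 with celecoxib and 0.99 with rofecoxib, and without 2 libraries it was 0.67. Ogn and Aspn, 40.1 kb apart, had r = 0.57 (rho 0.53, adjusted permutation p = 0.0288), which was 0.46 without 2 libraries and 0.31 after GC correction. Fmod and Prelp had r = 0.62 (rho 0.65, adjusted permutation p = 0.013) and 0.59 after GC correction. Bgn and Prelp, which lie on different chromosomes, had r = 0.68 (rho 0.65, adjusted permutation p = 0.0047) and 0.71 after GC correction. Dcn also passed with Pcolce (r = 0.65), Pcolce2 (0.637) and Fmod (0.55). Lum passed with Pcolce (0.632) and Prelp with Pcolce2 (0.56), so the pairs named above were not separate sets.

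The fibroblast score was correlated with 6 of the 10 genes and the smooth muscle score with none. The share of all tested genes that would pass was not computed. Dcn had the highest value, at r = 0.88 (rho 0.82, adjusted permutation p = 0.00022, 0.79 without rofecoxib 1 and 2). Pcolce followed at 0.82 (rho 0.67, adjusted permutation p = 0.00022, 0.80 without them). Lum was at 0.74 (rho 0.61, adjusted permutation p = 0.0034, 0.58 without them) and Podn at 0.68 (rho 0.64, adjusted permutation p = 0.0030, 0.68 without them). Fmod and Pcolce2 were both at 0.61 (rho 0.58 and 0.53, adjusted permutation p = 0.0165 and 0.0051, 0.57 and 0.63 without them). Bgn (0.04), Prelp (0.02), Ogn (-0.10) and Aspn (0.18) showed no relation that passed over the 24 libraries. Without rofecoxib 1 and 2 they had 0.218, 0.248, 0.10 and 0.347. Their values differed in sign between groups. In control, celecoxib and rofecoxib, in that order, Bgn had 0.331, 0.525 and -0.412 and Prelp 0.53, 0.481 and -0.387. Ogn had 0.337, 0.094 and -0.614 and Aspn 0.479, 0.221 and -0.13. Against the smooth muscle score, values ran from -0.45 (Podn, adjusted permutation p = 0.0968) to 0.41 (Bgn, adjusted permutation p = 0.147).

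**Figure D4:**
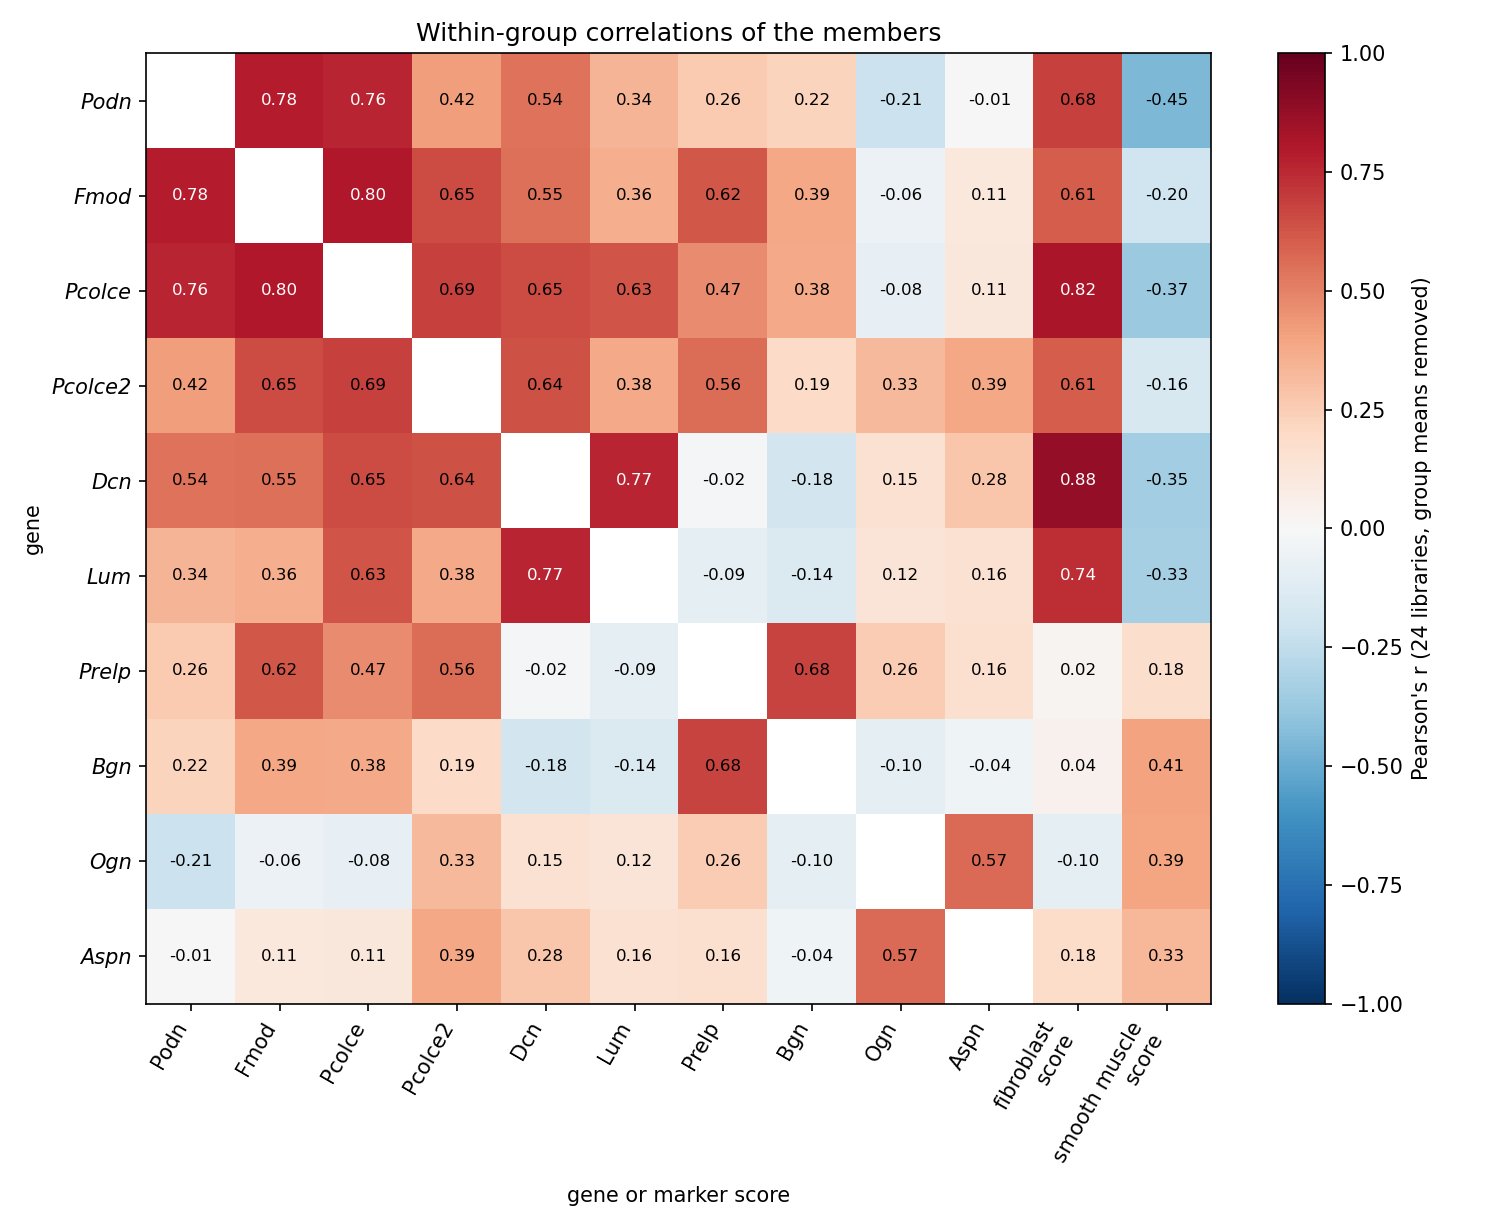
Pearson's r (colour and printed value) between the genes (rows) and the other genes and the 2 marker scores (columns), over 24 libraries after each group's mean was removed. Podn, Fmod and Pcolce share values of 0.76 to 0.80, Dcn and Lum have 0.77, and the fibroblast column is high for 6 genes and near 0 for Bgn and Prelp.

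The genes most like Podn and Pcolce in this within-group variation were sought among 12183 tested genes. They were chosen for their r, so r has no test. For Podn they were Pltp, the phospholipid transfer protein (r = 0.90), Os9, of protein quality control in the endoplasmic reticulum (0.89), Cpxm1 (0.86), the complement protease C1ra (0.85) and Smpdl3b (0.85). After GC correction these were 0.87, 0.78, 0.85, 0.91 and 0.83. For Pcolce they were Olfml3, a secreted matrix protein (r = 0.93), the aminopeptidase Anpep (0.91), the lysosomal mannosidase Man2b2 (0.90), Serpinf1 (0.90), which is in the fibroblast list, and the matrix protein Fbln1 (0.89). After GC correction they were 0.95, 0.90, 0.93, 0.88 and 0.88. These values share libraries, depth and tissue composition.

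The other genes of collagen maturation and proteoglycan synthesis were read against the same background. Of 66 tested genes on 6 pathway lists none rose with rofecoxib against control and 12 fell, where 2.87% of all genes were called lower. Of 9 other leucine-rich proteoglycans tested, 1 fell, Tsku (tsukushi), which was at 18.3 ± 2.82 CPM in control and 12.5 ± 1.95 with rofecoxib (SD, n = 8 each). Its log2 fold change was -0.56 ± 0.11 (edgeR adjusted p = 0.00947). Tsku stayed called with each library left out in turn, after GC correction (-0.46, adjusted p = 0.0310) and, narrowly, with the fibroblast score as a covariate (-0.43, adjusted p = 0.0492). It was not called with the smooth muscle score as a covariate (-0.44, adjusted p = 0.156). The median of the list was -0.02. Omd, Ecm2, Epyc and Optc, which neighbour members on their chromosomes, were not called. Kera was at 0 in all controls and was not tested.

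Of 5 procollagen proteinases tested, 2 fell. Adamts2, which removes the N-terminal propeptide, was at 312 ± 39.8 CPM in control and 242 ± 18.9 with rofecoxib (log2 fold change -0.37 ± 0.08, edgeR adjusted p = 0.0164). Bmp1, the proteinase that Pcolce enhances, was at 267 ± 23.0 and 229 ± 19.0 CPM (-0.22 ± 0.06, adjusted p = 0.0400). Bmp1 lost its call in 11 of 24 fits with 1 library left out, with an adjusted p of up to 0.0960 (without control 5). After GC correction neither was called (adjusted p = 0.0753 for Adamts2 and 0.298 for Bmp1). Neither was called with the fibroblast score as a covariate (edgeR adjusted p = 0.0948 and 0.127) or with the smooth muscle score (0.152 and 0.197).

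Of 14 fibrillar and fibril-associated collagens tested, 4 fell, with a list median of -0.22. Col1a1, which encodes 1 of the 2 kinds of type I collagen chain, was at 2392 ± 483 CPM in control and 1519 ± 243 with rofecoxib (log2 fold change -0.65 ± 0.13, edgeR adjusted p = 0.0119). Col1a2, which encodes the other kind, had -0.35 ± 0.09 (adjusted p = 0.0360), Col16a1 -0.34 ± 0.08 (adjusted p = 0.0196) and Col27a1 -0.29 ± 0.09 (adjusted p = 0.0481). Leaving out 1 library ended the call in 0 of 24 fits for Col1a1, 1 for Col16a1 (without control 5), 7 for Col1a2 and 17 for Col27a1. After GC correction none was called, with an adjusted p of 0.0504 for Col1a1, and with the fibroblast score as a covariate only Col27a1 was (adjusted p = 0.0363). With the smooth muscle score as a covariate none was called (edgeR adjusted p of at least 0.1175, for Col1a1).

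Some genes that build the sugar chains fell, read against the 2.87% of all genes called lower. Of 21 for chondroitin and dermatan sulfate 3 fell with rofecoxib, with a list median of -0.13: the polymerizing factor Chpf (-0.34 ± 0.07, edgeR adjusted p = 0.0147), the sulfotransferase Chst3 (-0.37 ± 0.08, adjusted p = 0.0187) and the xylosyltransferase Xylt2 (-0.22 ± 0.06, adjusted p = 0.0376). Of 4 for keratan sulfate, the chain of Fmod and Lum, 1 fell, the sulfotransferase Chst2 (-0.28 ± 0.08, adjusted p = 0.0383). Of 13 receptors and ligands of the proteoglycans 1 fell, Lrp1, an endocytic receptor for decorin (-0.29 ± 0.09, adjusted p = 0.0495). None of these 5 was called after GC correction. With either marker score as a covariate none was called, and the lowest edgeR adjusted p was 0.0512 (Chpf, fibroblast score). Without 1 library the calls ended in 0 of 24 fits for Chpf, 1 for Chst3 (without control 7), 8 for Xylt2, 9 for Chst2 and 19 for Lrp1.

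**Figure D5:**
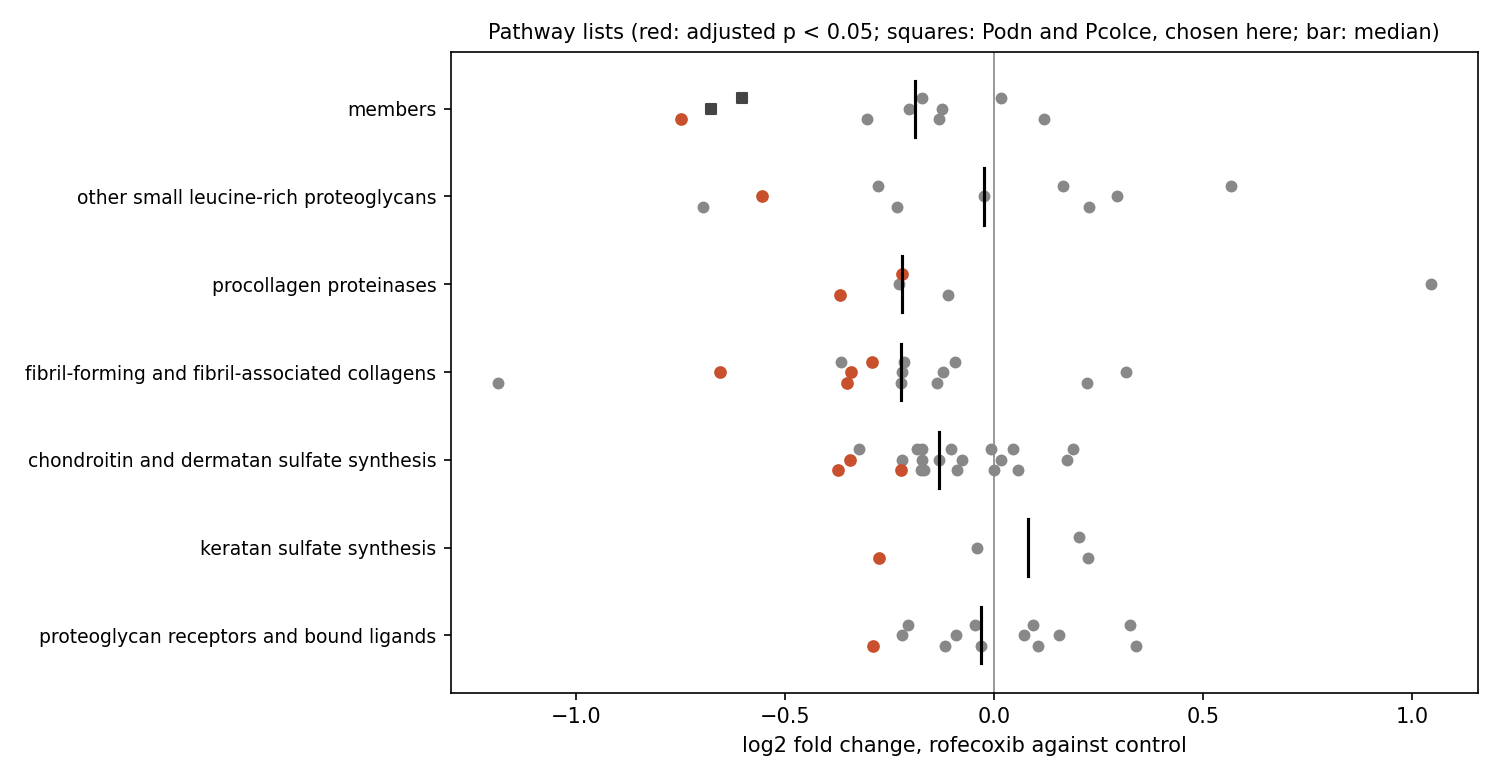
Log2 fold changes for rofecoxib against control (x axis) of the tested genes (points) of the members and of 6 pathway lists (rows), with the list median as a bar, called genes in red and the selected genes Podn and Pcolce as squares. The called genes all lie below 0, and the medians of the collagens and of the procollagen proteinases are near -0.22.

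With celecoxib 1 of the 66 genes on these lists was called against control, near the 1.41% called over all genes. It was the growth factor Bmp2, with 14.9 ± 2.14 CPM against 21.1 ± 4.86 (edgeR adjusted p = 0.0346, log2 fold change -0.50 ± 0.12). It lost the call in 8 of 24 fits with 1 library left out, with an adjusted p of up to 0.0865 (without celecoxib 5). Between the drugs, at their different doses, 22.7% of all genes were called and 11.5% were higher with celecoxib. Of 5 procollagen proteinases 3 were higher: Bmp1 (0.33 ± 0.06), Adamts2 (0.35 ± 0.08) and Adamts14 (0.65 ± 0.16). Of 14 collagens 4 were higher: Col11a2 (0.59 ± 0.10), Col16a1 (0.41 ± 0.08), Col1a1 (0.60 ± 0.13) and Col1a2 (0.30 ± 0.09), which lost its call in 4 of 24 fits with 1 library left out (edgeR adjusted p of up to 0.0623, without celecoxib 8). All 14 collagens had a value above 0, and the list median was 0.31, against -0.00 over all genes. With the fibroblast score as a covariate Col1a1 (edgeR adjusted p = 0.0570), Col1a2 (0.311) and Adamts2 (0.131) were no longer called. Col11a2, Col16a1, Bmp1 and Adamts14 stayed called in that fit (adjusted p of at most 0.0312, for Col16a1).

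Tsku was also higher with celecoxib than with rofecoxib (0.58 ± 0.11). Of 21 chondroitin and dermatan sulfate genes 7 were higher and 1 lower, where 11.5% of all genes were higher and 22.7% were called. No keratan sulfate gene was called. Of 13 receptors and ligands 4 were called, a share not far from the 22.7% over all genes. Tgfb1 (0.32 ± 0.08, edgeR adjusted p = 0.00563) and Lrp1 (0.27 ± 0.09, adjusted p = 0.0266) were higher, and Bmp2 (-0.38 ± 0.12, adjusted p = 0.0222) and Igf1r (-0.35 ± 0.13, adjusted p = 0.0472) lower. Leaving out 1 library ended the call of Igf1r in 15 of 24 fits (adjusted p of up to 0.122, without rofecoxib 8) and that of Lrp1 in 5 (up to 0.0735, without celecoxib 8). After GC correction 8.26% of all genes were called between the drugs. The collagens called were then 2 of 14, the proteinases 1 of 5, the chondroitin and dermatan sulfate genes 2 of 21 and the receptors and ligands 2 of 13, without Lrp1 and Igf1r. With the fibroblast score as a covariate Bmp2 (edgeR adjusted p = 0.134), Lrp1 (0.239), Igf1r (0.152) and the sulfotransferase Chst3 (0.0513) were not called. Tsku, Tgfb1, Chpf, Chst12 and B3gat3 were called in that fit (adjusted p of at most 0.0466, for Tgfb1).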

How the data were processed

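PolyA RNA of mouse thoracic aorta was sequenced from 24 libraries, 8 per group. The genome build was mm9 and the tools named are CASAVA 1.8.2 and STAR 2.5.1b, per the submitters' processing notes. Counting tool, annotation and strand: not given in the sources used here. Deposited by the authors were whole-number counts for 25941 genes. Library totals were nearly equal (21652432 to 21687906), by a step that no label or header names. Genes overlapping a member (Cenpp, Fbxo24, Gm15851 and Gm16126) had mean counts of 20 or less.

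Counts were tested with edgeR 4.0.16 (R 4.3.3): filterByExpr left 14451 genes, library sizes were TMM-scaled (0.959 to 1.03), and a robust quasi-likelihood model with 1 mean per group was fitted to all libraries (21 residual degrees of freedom). Benjamini-Hochberg adjustment covered all genes tested, and called means an adjusted p under 0.05. SE is the absolute log2 fold change over the square root of F. The fits were tested on simulated data. No 2 libraries of a group agreed within sampling noise (84 pairs, chi-square per degree of freedom at least 7.61). GC correction used a spline (5 degrees of freedom) on transcript GC content from GENCODE M21, known for 97.4% of tested genes. Correlations used log2 CPM (prior count 2), and the search for similar genes took those with a mean of at least 1. The 45 correlations between members were added after the data were seen.

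The members, lists and tests were chosen with earlier results of these data known. Named are all members, up to 4 called genes per pathway list and comparison with the smallest p, and the 5 genes most like Podn and Pcolce. Marker genes and single genes beside these were named after their values were seen. Replicate numbers did not pair the libraries. Alternatives were other scalings, DESeq2 1.42.0, no filter, only the groups compared, GC correction, score covariates, a replicate block and libraries left out.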

Additional observations from a re-analysis of the deposited data

Results flagged for a closer look

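Of 30 sets of 8 libraries (10 genes in 3 groups), 2 held a library far from the others, by the 95% critical value of Dixon's gap test; chance gives about 1 in 20. Ogn was at 947.3 CPM in rofecoxib 5, against 1205 to 1410 CPM in the other 7 rofecoxib libraries. Pcolce2 was at 114.9 CPM in rofecoxib 2, against 140.9 to 163.2 CPM in the others, in the library with the lowest fibroblast score (6.31).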

How the results depend on the processing

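Fmod kept its direction in every fit with rofecoxib libraries, and its call for rofecoxib against control in all but 3 of the 11 alternatives other than leaving out 1 library: with the fibroblast score (adjusted p = 0.0749), the smooth muscle score (0.175), and the replicate block with GC correction (0.0548). Counts of called members are given over the 8 that were not selected: for rofecoxib against control 1 (Fmod), and 0 in these 3 settings. As a description only, the selected genes Podn and Pcolce also missed the threshold with the smooth muscle score, where 0 of 10 members were called. Between the drugs Fmod was called in all 11 alternatives, joined by Dcn in both with GC correction. Celecoxib against control gave 0 in all.

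All genes called for celecoxib against control were 204, but 479 by DESeq2, 86 with no filter, 88 with only the 2 groups and 7 with the smooth muscle score. For rofecoxib against control 766 became 1594, 294, 461 and 7 in the same order, 150 with GC correction, 107 with the block and GC correction, 215 without control 6 and rofecoxib 2, and 201 with the fibroblast score. Between the drugs 3275 became 1194 with GC correction, 1285 with the block too and 2033 with the fibroblast score. With library totals 100 of 183 genes called for celecoxib against control were higher, and with TMM factors 132 of 204. Leaving out 1 library gave 42 to 312, 170 to 1121 and 2147 to 3739 genes.

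Replicate numbers pair no libraries as far as the data show: deviations of same-numbered libraries correlated at -0.391 to 0.324, over 0.1 in 10 of 24 pairs. A replicate block called 187, 653 and 3193 genes and, of the 8 members not selected, 0, 1 and 1 (Fmod).

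Signs of small values that were not called changed with the setting; the cause was not tested. For celecoxib against control: Bgn -0.018 with library totals, -0.0051 with only the 2 groups, -0.0337 without control 6 and rofecoxib 2, -0.0811 with the smooth muscle score; Aspn -0.0017, -0.0478 and -0.1101 with totals, without these libraries and with that score; Lum 0.0875 with that score; Ogn 0.0224 with GC correction (0.0249 with the block too); Pcolce2 0.0202, 0.0233 and, with the smooth muscle score, 0.0557. For rofecoxib against control: Ogn -0.0129, -0.0151 and -0.0013 and Aspn -0.1306, -0.1239 and -0.1100 in the same 3 settings, Aspn -0.0766 without those libraries, Dcn 0.1021 and Pcolce2 0.0174 with the fibroblast score. Between the drugs: Dcn -0.0486, Lum -0.0695, Aspn -0.0622 and Pcolce2 -0.0578 with the fibroblast score; Ogn 0.0354 and Prelp -0.0430 with GC correction (0.0399 and -0.0310 with the block too); Aspn -0.0115 with totals, -0.0056 with the block and -0.0001 with the smooth muscle score.

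Leaving out 1 library turned the sign of Podn (-0.0139 to 0.0766), Bgn (-0.0337 to 0.0287), Ogn (-0.0647 to 0.029), Aspn (-0.0478 to 0.067) and Pcolce2 (-0.0921 to 0.0622) for celecoxib against control, of Aspn (-0.0478 to 0.067) for rofecoxib against control, and of Prelp (-0.0139 to 0.0994) and Aspn (-0.0493 to 0.0451) between the drugs.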
